A study of Mus musculus with 12 samples.

Results

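The interleukin-1 (IL-1) family genes described here are 10 of the 54109 genes in the count table. They comprise the ligands Il1a, Il1b, Il18 and Il33, the receptor antagonist Il1rn, the decoys Il18bp and Il1r2, and the receptor chains Il1r1, Il1rl1 and Il1rap. They were taken by symbol, after the Ensembl identifiers were matched to GENCODE M21. No expression value entered that rule, but the list was chosen with earlier results of these data known. All 10 carried enough reads to be tested in every comparison, from 47 reads of Il1a in colon KO replicate 2 upwards.

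The mice had acute colitis from dextran sulfate sodium (DSS), which damages the lining of the large bowel. Gpr15l-/- animals (KO), without the secreted protein that binds the receptor Gpr15, were set against wild type (WT). Bulk mRNA was sequenced from full colon and from LPMC, a term commonly standing for the mononuclear cells of the lamina propria. With 3 libraries for each genotype in each tissue there were 12 libraries in 4 groups, and every group had received DSS, so that no group shows these genes in an uninflamed gut. Strain, age, DSS dose and the isolation of LPMC were not given in the sources used here. Whether each library stands for its own animal is not stated, and p-values measure the spread between libraries, which may be technical in part.

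Library totals ran from 45.4 to 140.7 M reads (M for 1e6). The deleted gene, annotated as 2610528A11Rik, had 15639 to 80362 reads in WT libraries and 4 to 20 in KO libraries. Epithelial markers had the largest summed level of the 14 cell type marker lists in every LPMC library, at 13880 to 20480 CPM (counts per 1e6 reads) against 20850 to 42510 CPM in colon, whereas T cell markers summed to 90.3 to 334 CPM in LPMC and 11.1 to 68.6 CPM in colon. LPMC is therefore used here as the submitters' name, for material that also held epithelial and fibroblast transcripts. On the second principal component, which carried 9.95% of the variance, colon KO replicate 2 (-92.6), LPMC WT replicate 3 (-76.7) and LPMC KO replicate 2 (-72.6) stood apart from the other 9 libraries (-12.1 to 53.4).

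IL-1 alpha and IL-1 beta signal through the receptor Il1r1 together with the accessory chain Il1rap, and the antagonist encoded by Il1rn occupies Il1r1 without signalling. Il1r2 binds IL-1 but lacks a signalling domain, and Il18bp captures IL-18 outside the cell. IL-33 signals through Il1rl1, also called ST2, again with Il1rap. In the gut, IL-1 beta is known as a product of activated myeloid cells, IL-18 as a product of epithelial cells that is made as an inactive precursor, and IL-33 as an alarmin of stromal and epithelial cells.

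In GRCm38, Il1a (ENSMUSG00000027399) and Il1b (ENSMUSG00000027398) lie on the minus strand of chromosome 2, at chr2:129299610-129309972 and chr2:129364570-129371139. Il1rn is on the plus strand at chr2:24336853-24351494. Il1r2 (chr1:40074079-40125231), Il1r1 (chr1:40225080-40317257) and Il1rl1 (chr1:40429570-40465415) lie in this order on the plus strand of chromosome 1. Il18 is on the plus strand at chr9:50554827-50581840, Il33 on the plus strand at chr19:29925114-29960718, Il18bp on the minus strand at chr7:102014885-102018690 and Il1rap on the plus strand at chr16:26581704-26730117. Exons of Il1a, Il1b, Il18bp and Il1rap overlap exons on the opposite strand, of Gm14023, Il1bos, Numa1 and Gm20319, and since the strand setting of the counting is unknown, reads in those overlaps cannot be told apart.

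The promoters of 3 genes are shown because Il1a and Il1b are the 2 IL-1 cytokines that were higher in LPMC than in colon, and Il18bp was the member furthest below colon in WT. Each is the 250 bases before the RefSeq start (GRCm38.p6), read 5′ to 3′ on the gene's own minus strand. The Il18bp window lies within the GENCODE gene span given above, while the windows of Il1a and Il1b begin just outside theirs. Capitals mark 4 motifs searched on both strands. The PU.1 motif was spelled GAGGAA. For AP-1 the letters were TGANTCA. The C/EBP motif was searched as TTGCNNAA, and the TATA box as TATAAA. An NF-kB motif was searched too.
Il1a (chr2:129309973-129310222): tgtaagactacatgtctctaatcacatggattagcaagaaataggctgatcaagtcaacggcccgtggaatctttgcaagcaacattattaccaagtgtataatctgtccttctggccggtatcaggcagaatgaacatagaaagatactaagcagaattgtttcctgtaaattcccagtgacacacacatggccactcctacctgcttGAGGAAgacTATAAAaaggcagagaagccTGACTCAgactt
Il1b (chr2:129371140-129371389): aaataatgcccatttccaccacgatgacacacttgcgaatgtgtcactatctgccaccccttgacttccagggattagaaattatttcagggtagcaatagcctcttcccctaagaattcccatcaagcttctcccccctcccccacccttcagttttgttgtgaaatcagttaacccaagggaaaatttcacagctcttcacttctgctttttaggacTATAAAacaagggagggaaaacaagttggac
Il18bp (chr7:102018233-102018482): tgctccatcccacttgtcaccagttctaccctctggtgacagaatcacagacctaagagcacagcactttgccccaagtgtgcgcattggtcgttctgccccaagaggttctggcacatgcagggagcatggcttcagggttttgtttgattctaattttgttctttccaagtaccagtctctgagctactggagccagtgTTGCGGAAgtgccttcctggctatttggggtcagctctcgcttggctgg

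The Il1a window held the PU.1, TATA and AP-1 motifs at 41, 32 and 12 bases before the start, and the Il1b window held a TATA motif at 31 bases. The Il18bp window held a C/EBP motif at 49 bases and no TATA motif. Of 32851 promoters in the table, 23.3% hold the PU.1 motif, 6.75% the AP-1 motif, 9.56% the C/EBP motif, 12.4% the TATA motif and 7.25% the NF-kB motif, which had no match in these 3 windows. These matches are descriptions of the letters and were not tested as binding sites.

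**Figure D1:**
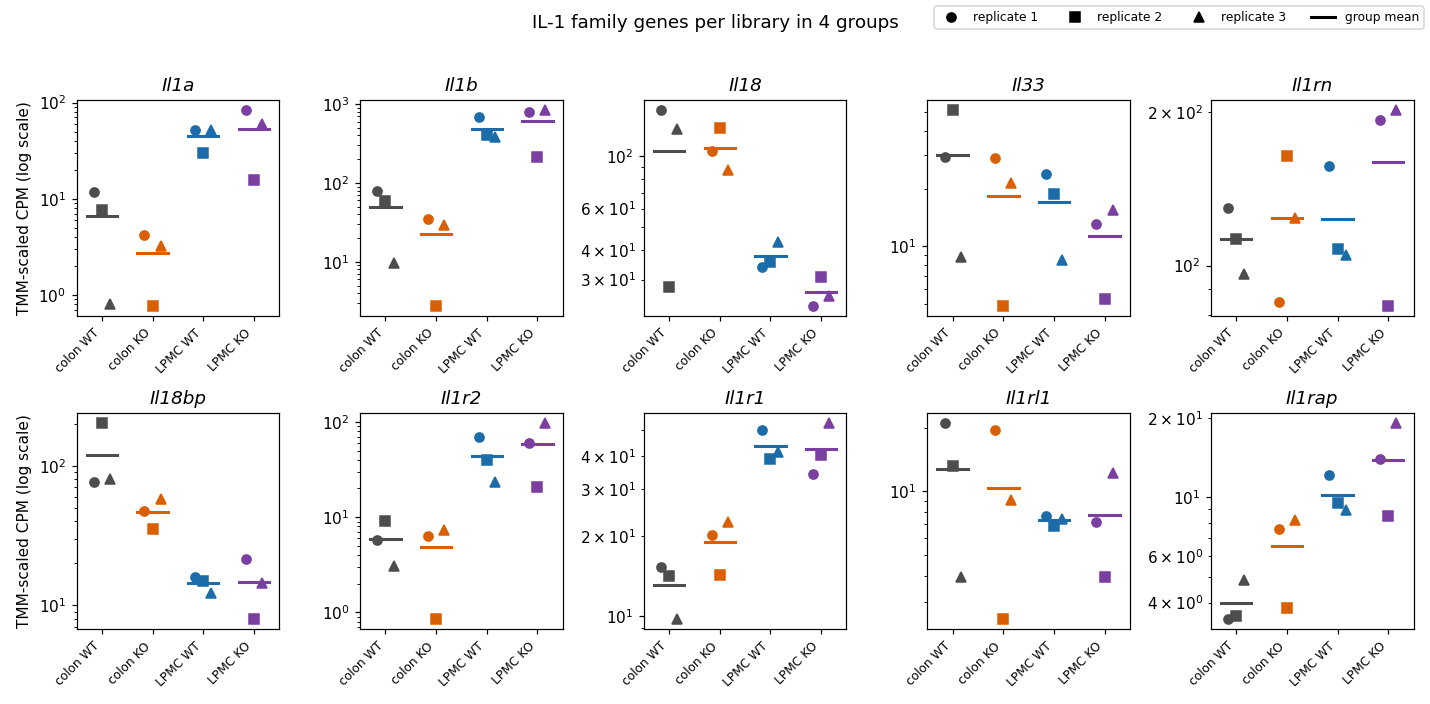
Level of each of the 10 genes in every library, as TMM-scaled CPM on a log scale, by group, with 1 point per library, its shape giving the replicate number, and a bar at the group mean. LPMC libraries lie above all colon libraries for Il1a, Il1b, Il1r2, Il1r1 and Il1rap, and below them for Il18bp, while those of Il1rn intermingle.

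The comparison of LPMC with colon sets the family's transcript levels in the 2 materials side by side. The cytokines Il1a and Il1b and the receptors Il1r1, Il1r2 and Il1rap were higher in LPMC in both genotypes, Il1b by 9.86-fold in WT and 27.6-fold in KO. Il18 and its binding protein Il18bp were lower in LPMC in both. Il1rn, Il33 and Il1rl1 did not pass the test in either. Thus 7 of 10 genes passed in each genotype, 5 higher and 2 lower, by edgeR's quasi-likelihood test at a Benjamini-Hochberg adjusted p under 0.05. Of all 20989 genes, 35.4% passed in WT (17.8% higher, 17.5% lower) and 28.1% in KO (14.5% higher, 13.6% lower). The libraries of the tissues did not overlap for 6 of the 10 in WT and 7 in KO, as for 49.8% and 47.4% of all genes. In bulk libraries, more cells of a type and more RNA per cell cannot be told apart.

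Il1b, the main secreted IL-1 cytokine, stood at 79.1, 59.9 and 9.70 CPM in the colon WT libraries and at 34.7, 2.76 and 29.5 CPM in colon KO (TMM-scaled CPM, replicates 1 to 3, as for all levels below). In LPMC it stood at 679, 400.2 and 387 CPM in WT and 786, 215 and 846 CPM in KO. Every LPMC library lay above every colon library, and the lowest library was replicate 3 in both WT groups and replicate 2 in both KO groups. The log2 fold change was 3.30 (SE 0.96, 95% interval 1.18 to 5.42, adjusted p = 0.0223) in WT and 4.78 (SE 1.03, 2.51 to 7.05, adjusted p = 0.00735) in KO by edgeR. The WT call was lost without colon WT replicate 2 (3.46, adjusted p = 0.0586), without colon WT replicate 3 (2.81, adjusted p = 0.0560) and without LPMC WT replicate 1 (2.99, adjusted p = 0.0594), and with no filter on low counts (3.30, adjusted p = 0.0708). In KO the call held without any 1 of the 6 libraries.

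Il1a, the membrane-bound and intracellular alarmin, was scarcer, at 22.6 CPM per kb of exon in LPMC WT against 256 CPM per kb for Il1b. Colon libraries held 11.6, 7.64 and 0.802 CPM in WT and 4.17, 0.767 and 3.23 CPM in KO. LPMC libraries held 52.4, 29.9 and 51.5 CPM in WT and 84.1, 15.7 and 59.3 CPM in KO, again all above colon. On the log2 scale LPMC exceeded colon by 2.74 (SE 0.91, adjusted p = 0.0389) in WT and by 4.28 (SE 0.98, adjusted p = 0.00973) in KO by edgeR. The WT call held only without colon WT replicate 1 (3.42, adjusted p = 0.0374) and was lost without any other library of the 6. Those values were 2.84 without colon WT replicate 2, 2.21 without colon WT replicate 3, 2.60 without LPMC WT replicate 1, 2.96 without LPMC WT replicate 2 and 2.62 without LPMC WT replicate 3, with adjusted p from 0.0546 to 0.0896. The KO call held without any 1 library.

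Il18 had the opposite pattern. Colon libraries held 157, 27.8 and 130 CPM in WT and 105, 132 and 87.6 CPM in KO. LPMC libraries held 34.0, 35.8 and 43.5 CPM in WT and 23.2, 30.8 and 25.7 CPM in KO. Colon WT replicate 2 lay below all 3 LPMC WT libraries, whereas the KO groups did not overlap. LPMC was lower by edgeR, with log2 fold changes of -1.48 (SE 0.47, adjusted p = 0.0317) in WT and -2.03 (SE 0.48, adjusted p = 0.0108) in KO. In WT the call held only without colon WT replicate 2. It was lost without colon WT replicate 1 (-1.06, adjusted p = 0.109), colon WT replicate 3 (-1.29, adjusted p = 0.0911), LPMC WT replicate 1 (-1.41, adjusted p = 0.0942), LPMC WT replicate 2 (-1.44, adjusted p = 0.0885) or LPMC WT replicate 3 (-1.58, adjusted p = 0.0630). The summed level of the 14 epithelial markers was likewise lower in every LPMC library than in every colon library, and its part in the Il18 difference was not tested.

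Il33 was spread widely within each group. Its level was 29.3, 51.5 and 8.84 CPM in colon WT, 28.8, 4.89 and 21.5 CPM in colon KO, 23.9, 18.8 and 8.51 CPM in LPMC WT and 13.03, 5.32 and 15.5 CPM in LPMC KO. The tissues overlapped, with the lowest library again replicate 3 in WT and replicate 2 in KO. The log2 fold change was -0.81 (SE 0.73, 95% interval -2.42 to 0.81) in WT and -0.71 (SE 0.73, -2.32 to 0.91) in KO, and neither passed. As ratios of LPMC to colon, the intervals spanned 0.187 to 1.75 in WT and 0.201 to 1.87 in KO, which leaves room for sizeable differences.

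Among the antagonist and the decoys, Il1rn differed least between tissues. It stood at 129, 113 and 96.2 CPM in colon WT, 84.9, 164 and 124 CPM in colon KO, 157, 108 and 105 CPM in LPMC WT and 193, 83.3 and 202 CPM in LPMC KO. The groups overlapped throughout, with a log2 fold change of 0.13 (SE 0.33, 95% interval -0.59 to 0.85) in WT and 0.36 (SE 0.33, -0.36 to 1.08) in KO. Without colon KO replicate 2 and LPMC KO replicate 2 together, a choice made after seeing the data, the KO value was 0.90 and passed (edgeR adjusted p = 0.0340).

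Il18bp, which neutralises IL-18, was the member furthest below colon in LPMC of WT mice, and Il18 itself in KO. Colon libraries held 75.9, 202 and 79.8 CPM in WT and 47.3, 35.5 and 58.2 CPM in KO. LPMC libraries held 15.9, 15.02 and 12.3 CPM in WT and 21.4, 7.96 and 14.6 CPM in KO, all below colon. The log2 fold change was -3.05 (SE 0.45, adjusted p = 0.000752) in WT and -1.68 (SE 0.42, adjusted p = 0.0142) in KO by edgeR. The WT value was -2.43 without colon WT replicate 2, the library highest in Il18bp, and stayed called. The KO call was lost without LPMC KO replicate 3 (-1.68, adjusted p = 0.0507).

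Il1r2, the decoy receptor, was scarce in colon, at 5.75, 9.03 and 3.05 CPM in WT and 6.36, 0.848 and 7.35 CPM in KO. In LPMC it reached 68.9, 39.7 and 23.7 CPM in WT and 59.5, 20.5 and 97.5 CPM in KO. Every LPMC library exceeded every colon library. By edgeR, the log2 fold change was 2.90 (SE 0.81, adjusted p = 0.0190) in WT and 3.60 (SE 0.83, adjusted p = 0.0103) in KO. The WT call was lost without colon WT replicate 1 (2.88, adjusted p = 0.0505), colon WT replicate 3 (2.58, adjusted p = 0.0681) or LPMC WT replicate 1 (2.42, adjusted p = 0.0619), and the KO call held without any 1 library.

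The signalling receptor Il1r1 varied by at most 1.59 times between libraries of a group. Its level was 15.4, 14.2 and 9.73 CPM in colon WT, 20.1, 14.3 and 22.6 CPM in colon KO, 50.1, 39.0 and 41.3 CPM in LPMC WT and 34.3, 40.2 and 53.2 CPM in LPMC KO. LPMC lay above colon without overlap, with log2 fold changes of 1.73 (SE 0.24, adjusted p = 0.000576) in WT and 1.16 (SE 0.24, adjusted p = 0.00530) in KO by edgeR, and both calls held without any 1 library. Il1rap, the shared accessory chain, stood at 3.46, 3.58 and 4.87 CPM in colon WT, 7.62, 3.83 and 8.24 CPM in colon KO, 12.2, 9.49 and 8.96 CPM in LPMC WT and 14.0, 8.54 and 19.1 CPM in LPMC KO. Its tissues did not overlap within a genotype. The log2 fold change of Il1rap was 1.36 (SE 0.35, adjusted p = 0.0128) in WT, held without any 1 library, and 1.08 (SE 0.35, adjusted p = 0.0403) in KO by edgeR. The KO call was lost without colon KO replicate 1 (1.18, adjusted p = 0.0720), colon KO replicate 2 (0.79, adjusted p = 0.115), LPMC KO replicate 1 (1.07, adjusted p = 0.0884) or LPMC KO replicate 3 (0.78, adjusted p = 0.168).

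Il1rl1, the IL-33 receptor, stood at 21.1, 13.2 and 3.95 CPM in colon WT and 19.6, 2.50 and 9.09 CPM in colon KO. In LPMC it stood at 7.65, 6.89 and 7.41 CPM in WT and 7.16, 3.94 and 12.2 CPM in KO, within the range of colon. Neither log2 fold change passed, at -0.80 (SE 0.71, 95% interval -2.36 to 0.76) in WT and -0.42 (SE 0.70, -1.97 to 1.13) in KO.

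**Figure D2:**
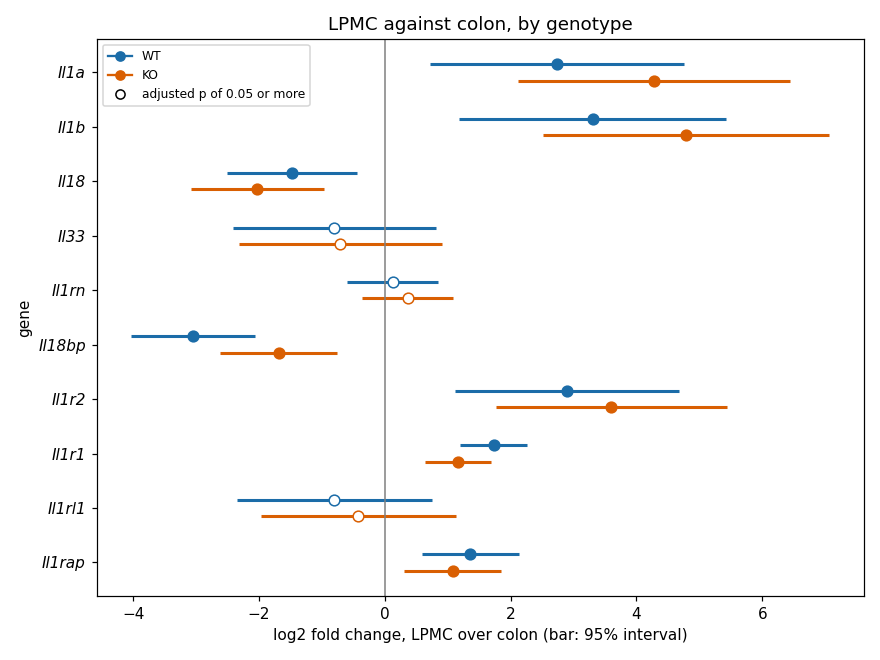
Log2 fold change of LPMC over colon for each of the 10 genes in WT and KO libraries, with 95% intervals from edgeR, filled points being those with an adjusted p under 0.05. Il1a, Il1b, Il1r2, Il1r1 and Il1rap lie to the right of 0 and Il18 and Il18bp to the left in both genotypes, while the intervals of Il33, Il1rn and Il1rl1 include 0.

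Several of these calls also depended on the fit. With no filter on low counts, the WT calls of Il1a (adjusted p = 0.107), Il18 (0.0666) and Il1r2 (0.0565) and the KO call of Il1rap (0.0565) were lost. In a fit of only the 6 libraries of a genotype, the WT calls of Il1a (0.0518) and Il18 (0.0909) and the KO call of Il1rap (0.0945) were lost, and with voom that of Il18 in WT (0.0911). Without colon WT replicate 3 and LPMC WT replicate 3 together, chosen after seeing the data, Il1a (2.10, adjusted p = 0.116), Il1b (2.96, 0.0756), Il18 (-1.40, 0.135) and Il1r2 (2.89, 0.0671) were not called in WT, and without replicate 2 of both KO groups Il18 was not called in KO (-1.99, adjusted p = 0.0708). Il1r1, Il18bp and Il1rap in WT, and Il1a, Il1b, Il1r2 and Il1r1 in KO, were called under all of these settings and without any 1 library.

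Levels between genes were compared per kb of merged exon (CPM per kb), a scale on which genes with long annotated exons such as Il1rap sit low. In colon WT, Il18 had the highest level at 102 ± 66.1 CPM per kb (SD, n = 3), followed by Il18bp at 39.5 ± 23.8, Il1b at 26.0 ± 18.8 and Il1rn at 20.4 ± 3.00. The neighbours in this order differed by less than the larger SD of the pair. In LPMC WT, Il1b led at 256 ± 86.4 CPM per kb, beyond the spread of Il18 at 36.6 ± 4.88, and Il1r2, Il1a and Il1rn followed at 23.1 ± 12.03, 22.6 ± 6.46 and 22.2 ± 5.31, which did not differ beyond their spread. The order in colon KO began with Il18 at 105 ± 21.5, Il1rn at 22.4 ± 7.13 and Il18bp at 15.5 ± 3.77, and that in LPMC KO with Il1b at 323 ± 183 and Il1r2 at 31.0 ± 20.2. Il1rl1 and Il1rap had the 2 lowest levels in LPMC of both genotypes, at 0.898 to 1.22 CPM per kb on average.

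Ratios within a library do not depend on how libraries are scaled, and 3 were formed, each of an antagonist or decoy to its partner. The log2 ratio of Il1rn to Il1b reads was 0.71 to 5.89 in the 6 colon libraries and -2.11 to -1.36 in the 6 LPMC libraries. Il1rn reads thus outnumbered Il1b reads in every colon library, by 1.64 to 59.2 times, and Il1b reads outnumbered Il1rn reads in every LPMC library. These are read counts, not corrected for exon length (5535 bases in Il1rn, 1907 in Il1b). The difference, LPMC minus colon, was -4.26, with p = 0.005 by a two-sided exact permutation test within genotype, the smallest that the 400 arrangements can give, and an adjusted p of 0.045 over 9 ratio tests. It lay between -4.70 and -3.55 without any 1 library. Since the tissues do not overlap, p then stays at its smallest value, so the unchanged adjusted p of 0.045 says nothing further of stability. Per kb of exon, Il1b exceeded Il1rn in colon WT replicates 1 (41.5 against 23.4 CPM per kb) and 2 (31.4 against 20.4). Il1b did so too in colon KO replicate 1 (18.2 against 15.3) and in every LPMC library. In the other colon libraries Il1rn stayed above Il1b per kb.

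The log2 ratio of the decoy Il1r2 to Il1r1 reads was -4.06 to -0.65 in colon and -0.97 to 0.87 in LPMC, overlapping between tissues. The difference was 1.91 (exact permutation test, p = 0.01, adjusted p = 0.045). The call was lost without any 1 of 8 of the 12 libraries, with an adjusted p of up to 0.09 and a lowest difference of 1.51, without colon KO replicate 2. The others of these 8 were colon WT replicates 1 (1.87) and 3 (1.80), colon KO replicates 1 (2.11) and 3 (2.12), LPMC WT replicates 1 (1.77) and 2 (1.88) and LPMC KO replicate 3 (1.75). The log2 ratio of Il18bp to Il18 was -1.89 to 2.86 in colon and -1.95 to -0.12 in LPMC, and the difference of -0.76 did not pass (exact permutation test, p = 0.395, adjusted p = 0.643).

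**Figure D3:**
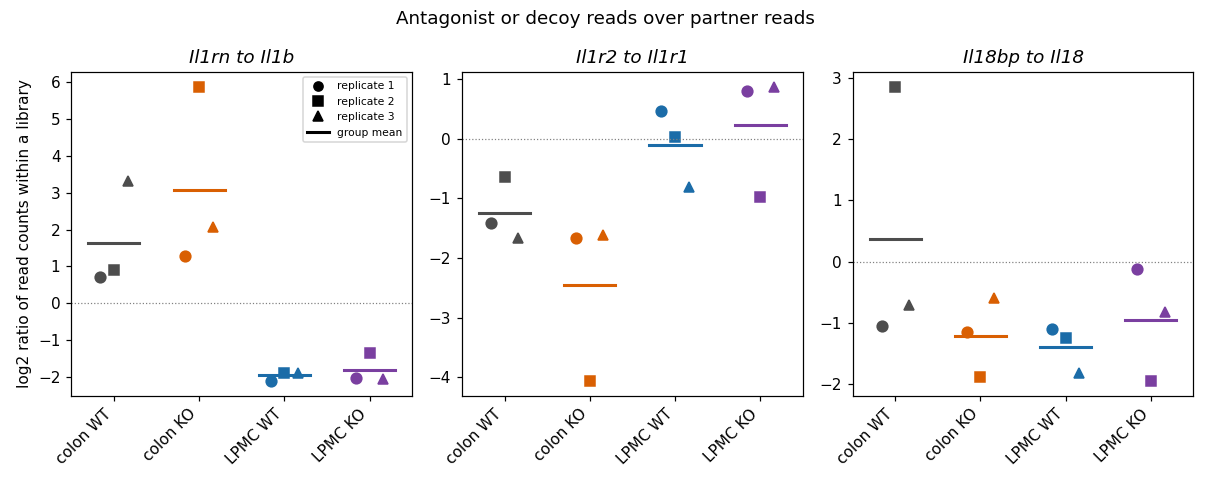
Log2 ratio of read counts within each library for Il1rn over Il1b, Il1r2 over Il1r1 and Il18bp over Il18, by group, with 1 point per library, its shape giving the replicate number, and a bar at the group mean. Reads are not corrected for exon length. The Il1rn to Il1b read ratio is above 0 in all 6 colon libraries and below -1 in all 6 LPMC libraries, and the other ratios overlap between tissues.

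Markers of the cells that could carry Il1b were read beside it. The 12 neutrophil markers summed to 583 to 930 CPM in colon WT, 265 to 486 CPM in colon KO, 66.6 to 134 CPM in LPMC WT and 82.6 to 652 CPM in LPMC KO. In WT, 0 of these markers were higher in LPMC and 2 were lower, Ly6g (log2 fold change -6.67) and Ltf (-5.90). In KO, 1 was higher, the collagenase gene Mmp8 (3.48), and 1 lower, Ly6g (-6.17). The sum is mostly Ly6g in colon, with 526 ± 86.8 CPM (SD, n = 3) in colon WT against 5.14 ± 1.39 CPM in LPMC WT, and 277 ± 52.4 against 3.84 ± 2.16 CPM in KO. Counted marker by marker, 6 of 12 were positive in WT (median log2 fold change 0.02), but 10 of 12 were positive in KO (median 2.22). In KO, 10 of the 12, the negative Ly6g among them, had an unadjusted p under 0.05. The receptor gene Csf3r stood at 10.03 ± 5.76 CPM in colon WT and 12.1 ± 4.24 CPM in LPMC WT, but at 8.41 ± 6.43 and 32.8 ± 21.5 CPM in KO. S100a9, a calcium-binding protein of neutrophils, stood at 35.5 ± 27.6 CPM in colon KO and 174 ± 134 CPM in LPMC KO, and Retnlg at 4.16 ± 3.60 and 46.5 ± 32.6 CPM. In WT, S100a9 stood at 62.7 ± 41.6 CPM in colon and 44.6 ± 16.95 CPM in LPMC, and Retnlg at 8.57 ± 5.80 and 13.8 ± 3.93 CPM.

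The 14 monocyte and macrophage markers summed to 373 to 677 CPM in colon WT, 236 to 588 CPM in colon KO, 357 to 596 CPM in LPMC WT and 311 to 948 CPM in LPMC KO, ranges that overlap. In WT, 0 were higher in LPMC and 2 lower, C1qa (-1.90) and Mrc1 (-1.81). In KO, 2 were higher, Ly6c2 (3.35) and Cd14 (0.98). By contrast, 12 immediate early and heat shock genes, a list chosen after values were seen, summed to 17190 to 17840 CPM in LPMC WT and 14090 to 21630 CPM in LPMC KO against 651 to 1663 CPM in colon. All 12 were higher in LPMC in both genotypes. T cell (8 of 12 higher in WT, 12 of 12 in KO), fibroblast (7 of 9 and 5 of 9) and endothelial markers (7 of 9 and 6 of 9) were higher too. So were many plasma cell (5 of 5 and 3 of 5), mast cell (6 of 8 in both) and regulatory T cell markers (4 of 5 in both). Group 2 innate lymphoid cell (5 of 8 in both) and dendritic cell markers (4 of 8 and 3 of 8) leaned likewise. Epithelial (7 of 14 in both) and enteric glia and neuron markers (7 of 7 in both) were lower. Of all genes, 17.8% were higher in WT and 14.5% in KO. Cell makeup and handling of the 2 materials cannot be told apart here, and the part of these lists in the members' differences was not tested.

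**Figure D4:**
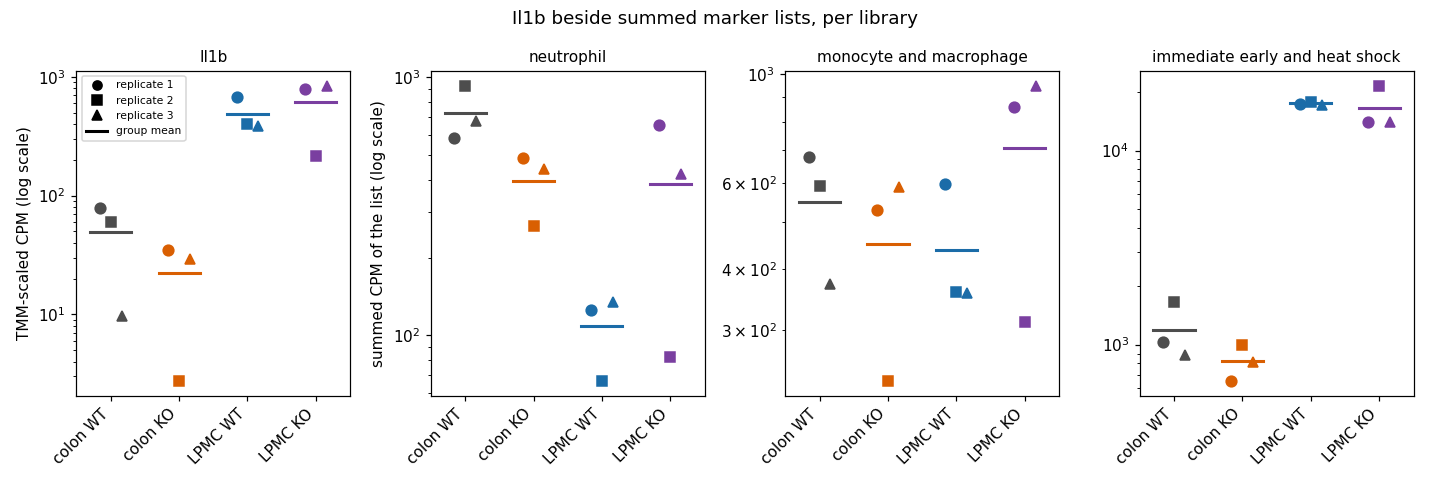
Il1b (TMM-scaled CPM) and the summed CPM of neutrophil, monocyte and macrophage, and immediate early and heat shock genes per library, on log scales, by group, with the replicate number as point shape and a bar at the group mean. Il1b and the immediate early and heat shock genes are higher in all LPMC libraries than in colon. The monocyte and macrophage sums overlap between tissues, and the neutrophil sums in colon consist mostly of Ly6g, which is low in LPMC.

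Of the other family genes, 6 of 11 listed had enough reads to be tested. In WT, 1 was higher in LPMC, the IL-18 receptor chain Il18r1 (log2 fold change 2.27, SE 0.55), and 0 were lower, beside 35.4% of all genes called. The WT call of Il18r1 held in 6 of 7 other settings of the fit. In KO, 3 were higher, beside 28.1% of all genes called. They were Il18r1 (3.21, SE 0.57), its partner chain Il18rap (3.05, SE 0.70) and Il1f9, which encodes IL-36 gamma (3.49, SE 0.87). Il18rap (1.39) and Il1f9 (0.93) did not pass in WT, and Sigirr, an inhibitory receptor of the family, passed in neither genotype (-0.54 and -0.34). In WT without colon WT replicate 2, Il18rap passed (2.16, adjusted p = 0.0463). Without colon KO replicate 3 the KO value of Il18r1 was 3.98, and without LPMC KO replicate 1 that of Il1f9 was 2.86.

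Members of the IL-1 family share a signalling route from the adaptor Myd88 to NF-kB. Of its 20 genes tested, 13 were higher and 0 lower in WT, and 11 higher and 1 lower in KO, against 35.4% and 28.1% of all genes called in either direction, with a median log2 fold change of 0.60 and 0.50 against 0.000312 and 6.26e-05 over all genes. The inhibitors of NF-kB signalling Nfkbia (2.49 in WT, 2.67 in KO) and Tnfaip3 (2.90 and 2.92) had the lowest p-values, followed by Nfkbiz, a nuclear cofactor (2.05 and 1.41), and the NF-kB subunit Rela (1.10 and 1.49). Tnfaip3 rose from 147 ± 3.33 CPM (SD, n = 3) in colon WT to 1090.0 ± 29.4 CPM in LPMC WT.

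IL-1 beta and IL-18 are made as precursors that need cleavage and release. Of 13 genes tested from this step, 1 was higher in LPMC and 4 were lower in WT, and 2 were higher and 5 lower in KO. Together 5 of 13 in WT is a share near that of all genes (35.4%), and 7 of 13 in KO stands beside 28.1%. Gsdmd, whose cleaved protein forms the pore through which IL-1 beta and IL-18 leave the cell, fell from 577 ± 84.1 CPM (SD, n = 3) in colon WT to 110 ± 6.76 CPM in LPMC WT. Its log2 fold change was -2.40 in WT and -2.11 in KO. Casp8 (-1.05 and -1.13), the DNA sensor Aim2 (-0.98 and -0.99) and the calpain Capn2 (-1.56 and -1.45), whose protease family processes IL-1 alpha, were lower as well. Nlrp3, the sensor of the inflammasome that activates caspase-1, was higher (3.31 and 4.43), and is named outside the rule of lowest p.

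Of 18 genes known to respond to IL-1, 5 were higher in LPMC and 1 lower in WT, and 6 higher and 1 lower in KO. In WT 6 of 18 is no larger a share than that of all genes (35.4%), and 7 of 18 in KO stands beside 28.1%. The chemokines Cxcl1 (2.86 in WT, 3.07 in KO) and Cxcl2 (2.87 and 4.21), the growth factor Csf2 (2.62 and 4.88) and the prostaglandin synthase Ptgs2 (4.42 and 5.36) were higher. Without colon KO replicate 1 the KO value of Ptgs2 was 5.94. Cxcl5, named after its values were seen, was lower at -4.12 in both genotypes.

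Of 10 genes that respond to IL-33 or IL-18, 4 were higher in WT and 5 in KO, and 0 were lower, beside 35.4% and 28.1% of all genes called. Areg, a ligand of the epidermal growth factor receptor, was higher by 2.62 in WT and 3.05 in KO, and the cytotoxic protease Gzmb by 4.13 and 5.29, the latter being 6.16 without colon KO replicate 3. Il13 had 0 reads in every colon WT library and 0.282 to 0.585 CPM in LPMC WT. Il5 had at most 3 reads in a colon library and 0.546 to 0.887 CPM in LPMC WT. Both passed in both genotypes, and since their colon counts were so low no fold is given.

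The comparison of KO with WT colon asks whether loss of Gpr15l alters the family's transcripts in the inflamed tissue. None of the 10 genes passed edgeR's test (0.00518% of 19303 genes did, the deleted gene alone), and none passed with DESeq2, which called 32 genes. At an unadjusted p under 0.05 there was 1 of the 10, Il18bp, among 1504 of the 19303 genes tested. Il18bp was lower in all 3 KO libraries than in any WT library, as were 6.53% of all genes. With 1 gene of 10, the family lies near these shares of all genes. The mean of Il18bp was 119 ± 72.0 CPM (SD, n = 3) in WT and 47.0 ± 11.4 CPM in KO. Its log2 fold change was -1.36 (95% interval -2.34 to -0.38, SE 0.42, adjusted p = 0.632 by edgeR). Without colon WT replicate 2 it was -0.74.

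Il1b averaged 49.6 ± 35.8 CPM in colon WT and 22.3 ± 17.1 CPM in colon KO, with overlapping libraries. Its log2 fold change of -1.18 (SE 0.97) had a 95% interval from -3.45 to 1.10, which spans 0.0912 to 2.15 times the WT level. Il1a (-1.32, SE 0.94) was -0.64 without colon WT replicate 1, and Il33 (-0.72, SE 0.76) was -0.077 without colon WT replicate 2. The narrowest interval belonged to Il1rn (0.13, SE 0.27, -0.50 to 0.75), at 113 ± 16.6 CPM in WT and 124 ± 39.5 CPM in KO. Il1r1 (0.52, -0.13 to 1.17) and Il1rap (0.71, -0.15 to 1.57) had positive values without passing, and Il18 (0.03), Il1r2 (-0.31) and Il1rl1 (-0.32) changed sign without 1 library or another. Il1rl1 ran as low as -1.14, without colon KO replicate 1. Colon KO replicate 2 was the lowest colon KO library for every member, Il18bp among them, except Il18 and Il1rn, for which it was the highest. It also had the lowest sum of monocyte and macrophage markers of the 12 libraries. The part of these markers in the members' values was not tested.

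The same comparison in LPMC gave no called gene among the 10 either (0.0103% of 19426 genes passed, and DESeq2 called 34 genes and 0 of the 10). At an unadjusted p under 0.05 there was again 1 of the 10, this time Il18, among 513 genes. Its libraries did not overlap, at 37.8 ± 5.04 CPM (SD, n = 3) in WT and 26.5 ± 3.87 CPM in KO, as in 3.74% of all genes lower without overlap. The log2 fold change of Il18 was -0.52 (SE 0.15, 95% interval -0.87 to -0.16, adjusted p = 0.998 by edgeR).

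Il1b averaged 489 ± 165 CPM in LPMC WT and 616 ± 349 CPM in LPMC KO, a log2 fold change of 0.34 (SE 0.53, 95% interval -0.96 to 1.63). LPMC KO replicate 2 lay below all WT libraries and the other 2 KO libraries above them. Sums of neutrophil markers differed among the same libraries. LPMC KO replicates 1 and 3 held 652 and 423 CPM of neutrophil markers, against 66.6 to 134 CPM in LPMC WT and 82.6 CPM in LPMC KO replicate 2. Of the 12 neutrophil markers 11 were positive (median 1.85), and 6 of the 12 had an unadjusted p under 0.05. Among the 14 monocyte and macrophage markers 13 were positive (median 0.91). None of these markers passed edgeR's test, and their part in the Il1b values was not tested. Il1r1 had a narrow interval around 0 (-0.03, SE 0.20, -0.50 to 0.44). Il1a (0.25), Il1rn (0.37), Il1r2 (0.43), Il1rap (0.45), Il33 (-0.60), Il18bp (0.02) and Il1rl1 (0.09) had intervals that included 0.

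The KO effects in the 2 tissues were compared in a single model of the 12 libraries. No gene of the 20989 tested passed, a share of 0%, while 985 genes, among them 1 of the 10, had an unadjusted p under 0.05 and DESeq2 called 3 genes. That gene was Il18bp, whose KO effect was higher in LPMC than in colon by 1.37 on the log2 scale (SE 0.59, 95% interval 0.08 to 2.65, adjusted p = 0.902 by edgeR), and by 0.75 without colon WT replicate 2. For Il1b the difference was 1.48 (SE 1.25), with an interval from -1.27 to 4.24, and for Il1a 1.54 (SE 1.22, -1.15 to 4.24), or 0.86 without colon WT replicate 1. None of the 3 ratios passed the test between KO and WT, with differences of -1.58 to 1.44 and exact permutation p-values from 0.3 to 0.8, where 3 libraries against 3 cannot go below 0.1.

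**Figure D5:**
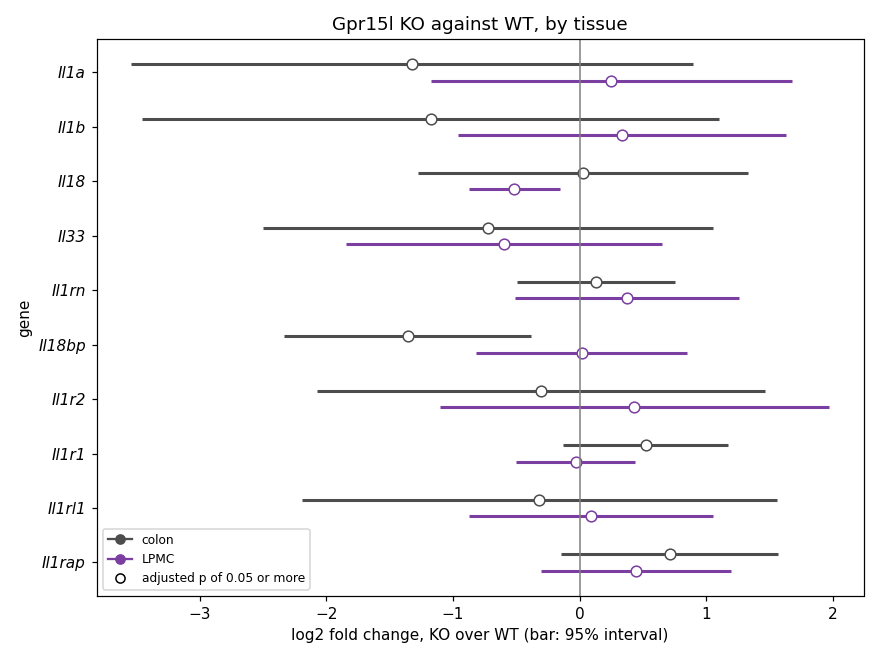
Log2 fold change of KO over WT for each of the 10 genes in colon and in LPMC, with 95% intervals from edgeR, open points being those with an adjusted p of 0.05 or more. Every point is open, the intervals of Il18bp in colon and Il18 in LPMC lie below 0, and the intervals of Il1a and Il1b in colon are the widest.

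Downstream genes likewise had no call between genotypes. In colon, all 18 IL-1 response genes were negative, the median log2 fold change being -0.84 against 0.01 over all genes, and 0 passed. They included Cxcl1 (-1.18), Cxcl2 (-1.37), Csf2 (-1.93) and the acute-phase gene Saa3 (-1.55, and -0.61 without colon WT replicate 1). None of the cell type markers passed the test in colon either, but their values leaned with the comparison. T cell markers were negative in 12 of 12 (median -1.02), B cell markers in 6 of 6 (-5.01), and neutrophil markers in 10 of 12 (-0.56). The immediate early and heat shock genes were negative in 10 of 12 (-0.58). B cell markers summed to 820 CPM in colon WT replicate 1, while no other library of full colon exceeded 19.1 CPM. Fibroblast markers were positive in 8 of 9 (0.67) and smooth muscle markers in 8 of 8 (0.87). Their part in the response genes' values was not tested. In LPMC, 9 of 18 were negative and 0 passed, with Cxcl1 at -0.95 and Ccl20 at -1.30, the siderophore-binding Lcn2 at 1.49 (0.27 without LPMC KO replicate 1) and the protease Mmp10 at 1.48 (0.71 without LPMC KO replicate 3). DESeq2 called Cxcl1 (-0.96, adjusted p = 0.000540) and Nfkbiz (-0.64, adjusted p = 0.0294) as lower in LPMC KO. The genes that respond to IL-33 or IL-18 were negative in 8 of 8 tested in colon (median -0.82). In LPMC 9 of 10 of that list were positive (median 0.60), and 0 passed in either tissue. Of the 20 signalling genes, 11 were negative in each tissue and 0 passed, among them Nfkbia (-0.55 in colon, -0.36 in LPMC), Myd88 (-0.48), Rela (-0.43) and Traf6 (0.26) in colon, and Nfkbiz (-0.64), Tnfaip3 (-0.15) and Irak3 (0.51) in LPMC.

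Within groups, several of the 10 genes went up and down together. After removal of the group means, log2 levels over the 12 libraries gave a Pearson r of 0.95 for Il1b and Il1rl1, 0.93 for Il1a and Il1b, 0.93 for Il33 and Il1r2 and 0.93 for Il1b and Il33. Il1rn was not among them, with an r of 0.16 to Il1b. Il18 and Il18bp ran opposite to each other (-0.84), colon WT replicate 2 being the lowest colon library for Il18 and the highest of all for Il18bp. The libraries differed in depth and composition and include the low replicates named above. The correlations are descriptions of these libraries, and the part of such differences in them was not tested.

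The genes most like each of 4 members were sought among 15924 protein-coding genes by Pearson r of log2 CPM over the 12 libraries, with the r after removal of group means beside it. For Il1b they were Plek (0.996, and 0.982 within groups), Lcp2 (0.994, 0.981) and Nlrp3 (0.994, 0.984). For Il18 they were Slc26a3 (0.973, 0.974), Abcg2 (0.964, 0.895) and Ces3b (0.959, 0.916), and Slc26a3 ranged from 41.7 to 592 CPM in colon WT. For Il33 they were Akt2 (0.912, 0.939), Tspan4 (0.911, 0.900) and Ccl7 (0.908, 0.927). For Il1rn the highest values were lower, with Rab12 (0.838, 0.920), Isl2 (0.837, 0.894) and Sidt2 (0.835, 0.828).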

How the data were processed

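The authors deposited raw read counts, not normalized, in 1 table of the 12 libraries by Ensembl identifier. Per the labels' protocols, a stranded mRNA kit was used for sequencing on a HiSeq. STAR and GRCm38 are named in the submitters' processing notes, but no counting tool, strand setting or filter was given in the sources used here. Low counts were mostly even (64.8 to 75.2% of those under 50 per library), the pattern of mates counted separately, so counting error exceeds what the counts imply.

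Symbols came from GENCODE M21 (54042 identifiers matched, 67 not) and promoter sequences from RefSeq (all 10 members matched). Tests used edgeR 4.0.16 in R 4.3.3 with TMM factors, filterByExpr (minimum count 10), robust dispersions and the quasi-likelihood F-test, Benjamini-Hochberg adjusted over all genes tested. KO to WT comparisons used the 6 libraries of a tissue, the others all 12. SE is the log2 fold change divided by the square root of F. Ratios added 0.5 to each count and used exact permutation tests. Steps were tested on simulated data.

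Alternatives were DESeq2 1.42.0, its size factors, voom in limma 3.58.1, no filter, other sample sets, a replicate block and leaving out each library. Beyond the members, up to 4 genes per list with the lowest p were named. The members, lists and tests were chosen with earlier results of these data known.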

Additional observations from a re-analysis of the deposited data

How the results depend on the processing

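Over the members and named pathway genes, 660 log2 fold changes recomputed under the other settings kept their direction and side of the threshold, 6 reversed, 16 lost and 4 gained a call. Without 1 library, 649 kept both, 25 reversed, 21 lost and 1 gained a call. No member was called between genotypes under any setting. Genes called in colon were 32 with DESeq2, 0 with the replicate block and 2 in the fit of all 12 libraries, and 0 to 1 without a library. In LPMC they were 4 with no filter, 34 with DESeq2, 0 with the replicate block and 1 to 2 without a library. DESeq2 called 3 genes for the difference between tissues. For LPMC against colon in WT, members called were 3 with no filter and 3 without both WT replicates 3 (4160 genes), and 3 to 5 without 1 library (5464 to 7112 genes). In KO, 3548 genes were called without both KO replicates 2, and 3647 to 5005 genes and 5 to 7 members without 1 library. Both pairs were chosen after seeing the data. The cause of these differences was not tested, beyond the fewer libraries in such fits.

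In LPMC, the KO to WT value reversed for Il18bp (-0.044 with voom, -0.083 with the block), Il1rl1 (-0.083 and -0.069) and Il1a (-0.011 with the block), and the difference between tissues reversed for Il33 (-0.23 with voom). Without 1 library, KO to WT values changed sign in colon for Il18 (-0.42 to 0.45), Il1r2 (-0.72 to 0.19), Il1rl1 (-1.14 to 0.26) and Il1rn (-0.13 to 0.36). They did so in LPMC for Il18bp (-0.34 to 0.32), Il1a (-0.23 to 0.69), Il1r1 (-0.23 to 0.11), Il1r2 (-0.15 to 0.91), Il1rl1 (-0.41 to 0.41), the Il1r2 to Il1r1 ratio (-0.010 to 0.94) and the Il1rn to Il1b ratio (-0.083 to 0.27). The difference between tissues did so for Il1rl1 (-0.20 to 1.22) and Il33 (-0.55 to 0.58), and LPMC against colon for Il1rn in WT (-0.085 to 0.24) and Il1rl1 in KO (-0.90 to 0.40). The tissue difference of the Il1r2 to Il1r1 ratio was 1.51 to 2.21.

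With the replicate block, the tissue differences of the Il1rn to Il1b ratio (-4.26) and the Il1r2 to Il1r1 ratio (1.91) had an adjusted p of 0.141 by an exact permutation test of signs over pairs. Their p of 0.03125 is the smallest that 6 pairs can give and could not pass after adjustment over 9 tests, so this says nothing of their stability. Same-numbered LPMC and colon libraries correlated at 0.114, 0.063 and 0.141 in WT in their deviations from group means (replicates 1 to 3). In KO they correlated at 0.041, 0.261 and 0.136. Same-numbered KO and WT libraries, which differ in genotype and so cannot share an animal, correlated from -0.183 to 0.206. Not every pair exceeded 0.1, so the numbers were not taken to pair the libraries. The labels do not say whether same-numbered LPMC and colon libraries share an animal, and this was not tested. The block also ended the call of Il18 between tissues in WT (-1.41, adjusted p = 0.0645). In WT, each LPMC library correlated best with the colon library of its own number, a hint from the data only, and in KO this did not hold. Depth limits Il5 and Il13, at 0 to 3 reads in colon, for which no fold could be given.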
